A study of Arabidopsis thaliana with 15 samples.

Results

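Genes of 4 families of membrane and cytoskeleton proteins were followed through 5 sorted cell populations of the Arabidopsis thaliana root: the tetraspanins (TET), the prenylated Rab acceptors (PRA1), the Networked proteins (NET) and the IQ67-domain proteins (IQD). A member was a probe set whose single annotated gene symbol begins with TET, PRA1 or PRA, NET or IQD and a number, read without regard to letter case. This gave 51 of the 22810 probe sets of the array, namely 15 for TET, 11 for PRA1, 10 for NET and 15 for IQD, each for a different gene. PRA7 and PRA8 were counted in PRA1, since the gene table lists PRA1.F2 and PRA1.F3 as their synonyms. A further 2 probe sets carry PRA1.F4 together with AT3G13700 and were left out.

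All samples were ecotype Columbia seedlings that were grown for 5 days on full medium and then held for 3 h on medium without sulfur, after which root protoplasts were made and sorted by their fluorescence. The populations were the columella root cap (marker line Pet111), the epidermis with the lateral root cap (pWER::GFP), the cortex (pCOR::GFP), the endodermis with the quiescent center (pSCR::GFP) and the stele (pWOL::GFP), with 3 arrays each. They are called columella, epidermis, cortex, endodermis and stele here, and each holds every cell in which its marker line fluoresces. All 15 samples share the sulfur-free treatment, so no contrast here concerns sulfur itself, and whether replicates were planted separately is not stated in the labels.

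Tetraspanins are small proteins with several membrane-spanning segments that gather partner proteins into membrane microdomains. PRA1 proteins are small membrane proteins of the endoplasmic reticulum, the Golgi and endosomes that bind prenylated Rab GTPases, the switches of vesicle traffic. NET proteins are a plant family that binds actin filaments and ties them to membranes, and IQD proteins are scaffolds that bind calmodulin, the calcium sensor, and in many cases sit on microtubules or at the plasma membrane. No protein, probe or promoter sequences were used here.

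Values are Affymetrix signals after quantile normalisation, called signal below, and differences are on the scale of log2(signal + 16), which understates changes of dim probe sets. A probe set was tested where it exceeded the 40th percentile of its array, a signal of 32.9, on at least 3 arrays. Of the 51 members, 37 were tested, 9 each of TET and PRA1, 7 of NET and 12 of IQD. The other 14 stayed near background: TET11, TET12, TET13, TET14, TET15 and TET16 reached 11.8 to 48.5 at most on any array, PRA1.F1 and PRA1.G1 28.7 and 21.7, NET2C, NET3B and NET3C 11.2 to 24.7, and iqd21, IQD24 and IQD27 13.8 to 34.1. A member that passed only through the population where it is high was selected in part for that difference. The counts below therefore describe the tested members and not the families.

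The arrays were first compared with their labels. Of the markers that could be measured, the 4 for the cortex summed to a signal of 3018 to 3653 on the cortex arrays, 562.9 to 625.0 in the endodermis and at most 89.3 elsewhere. JKD, one of them, had log2 levels of 6.89, 7.96 and 7.21 in the endodermis and 7.60, 7.49 and 7.13 in the cortex. The 3 for the endodermis summed to 4004 to 4791 on its own arrays, 1337 to 1562 in the cortex and at most 541 elsewhere, and the single root cap marker, AT1G65570, stood at 4432 to 8031 in the columella and at most 766 elsewhere. The 2 quiescent center markers summed to 94.8 to 139.1 in the endodermis, 5.7 to 297.3 in the epidermis and 21.5 to 224.9 in the stele. Their sums were at most 73.8 in the columella and 53.6 in the cortex. The 2 stele markers summed to 310.9 to 2011 in the stele and 242.5 to 1534 in the epidermis. They summed to 407 to 796 in the endodermis, 308 to 375 in the columella and 84.5 to 164.7 in the cortex, so they were not confined to the stele. The array labelled epidermis replicate 2 correlated best with stele replicate 2 (r = 0.973, across probe sets, which are not independent), and the array labelled stele replicate 1 with epidermis replicate 3 (r = 0.965), against 0.826 and 0.845 with the best array of their own label. PHV, a regulator of vascular patterning, had a log2 level of 9.11 on epidermis replicate 2 and 5.56 and 5.37 on the other epidermis arrays, and of 4.52 on stele replicate 1 and 8.59 and 9.14 on the other stele arrays. The root hair genes EXPA7 and EXPA18 gave another grouping. EXPA7 had log2 levels of 8.05, 8.41 and 8.68 on the 3 epidermis arrays in replicate order, with epidermis replicate 2 as its label says, and of 8.05, 8.56 and 5.78 on the stele arrays. EXPA18 had 8.48, 8.63 and 8.99 in the epidermis and 8.55, 8.16 and 5.86 in the stele, so that stele replicates 1 and 2 were both at the epidermis level and stele replicate 3 was not. Groups were kept as labelled, and calls that change without both arrays, an alternative chosen with their values known, are given with and without them. Leaving out arrays picked for standing apart from their labels narrows the spread, so p-values of that fit tend to come out too small. It also leaves only 2 arrays each in the epidermis and the stele, and stele replicate 2, at the epidermis level for EXPA7 and EXPA18, is kept. The endodermis replicate 2 array was set apart by its actin control, whose 3' signal was 43.0 times the 5' signal, a sign of RNA or amplification quality, against 6.56 and 7.15 times on the other endodermis arrays and 9.4 to 28.3 times on the arrays of the other populations.

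Across all 4 families, 32 of the 37 tested members differed among the populations by limma's moderated F test (86.5%), against 66.1% of all 16126 tested probe sets. Each population was then set against the average of the other 4 population means in the same limma model, and a member counts as called where that difference reached 1 log2 in either direction and its adjusted p was below 0.05. In the endodermis 8 members were higher and 0 lower (backgrounds 7.83% and 3.42%), while limma's unadjusted p was under 0.05 for 16 members above and 3 below the other populations, whatever the size, and in the cortex 7 were higher and 4 lower (13.3% and 14.6%). The columella had 4 higher and 9 lower members (11.7% and 11.7%), in the epidermis 1 was higher and 5 lower (6.95% and 6.1%), and in the stele 3 were higher and 5 lower (6.5% and 5.89%). At an unadjusted limma p under 0.05, members above and below numbered 8 and 13 in the columella and 3 and 14 in the epidermis. They numbered 13 and 10 in the cortex and 7 and 9 in the stele. No share of all tested probe sets at this unadjusted threshold is given. For any probe set the 5 differences sum to nothing, so high values in some populations force low values in others. Sorting pools many cells, and fewer expressing cells or less RNA per cell cannot be told apart.

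Without both arrays in doubt, 34 of 37 members passed the F test (background 83.1%), and the counts changed most where those arrays belong. In the epidermis 0 members were then higher and 13 lower (11.6% and 12.4%), and in the stele 9 were higher and 7 lower (12.9% and 11%). For the columella the counts were 5 higher and 9 lower (12.3% and 12.8%), with 9 and 5 in the cortex (14.2% and 16.4%), and 9 and 0 in the endodermis (9.18% and 4.71%). Among calls made only without both arrays were lower levels in the epidermis for TET2 (-1.29), NET1B (-1.45) and iqd32 (-1.19). NET1D was then also called higher in the cortex (1.03). As labelled, 4 members were enriched, meaning at least 1 log2 higher, at an adjusted p under 0.05, than in each other population separately (12.1% of all tested probe sets): NET4B and IQD22 in the columella (5.78%), and TET2 and NET1B in the cortex (4.48%). No member was enriched in the endodermis (1.84%) by limma, nor in the epidermis or the stele (0% each). In the endodermis 16 had an unadjusted limma p under 0.05 above the other populations. That count has no share of all tested probe sets beside it, so it does not set the members apart from other probe sets. Without both arrays 7 were (17%): NET4B and IQD22 in the columella (5.56%), TET2 and TET3 in the cortex (4.76%), and NET1A, IQD16 and iqd33 in the stele (2.82%), beside 0 in the endodermis (2.17%) and the epidermis (1.68%).

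**Figure D1:**
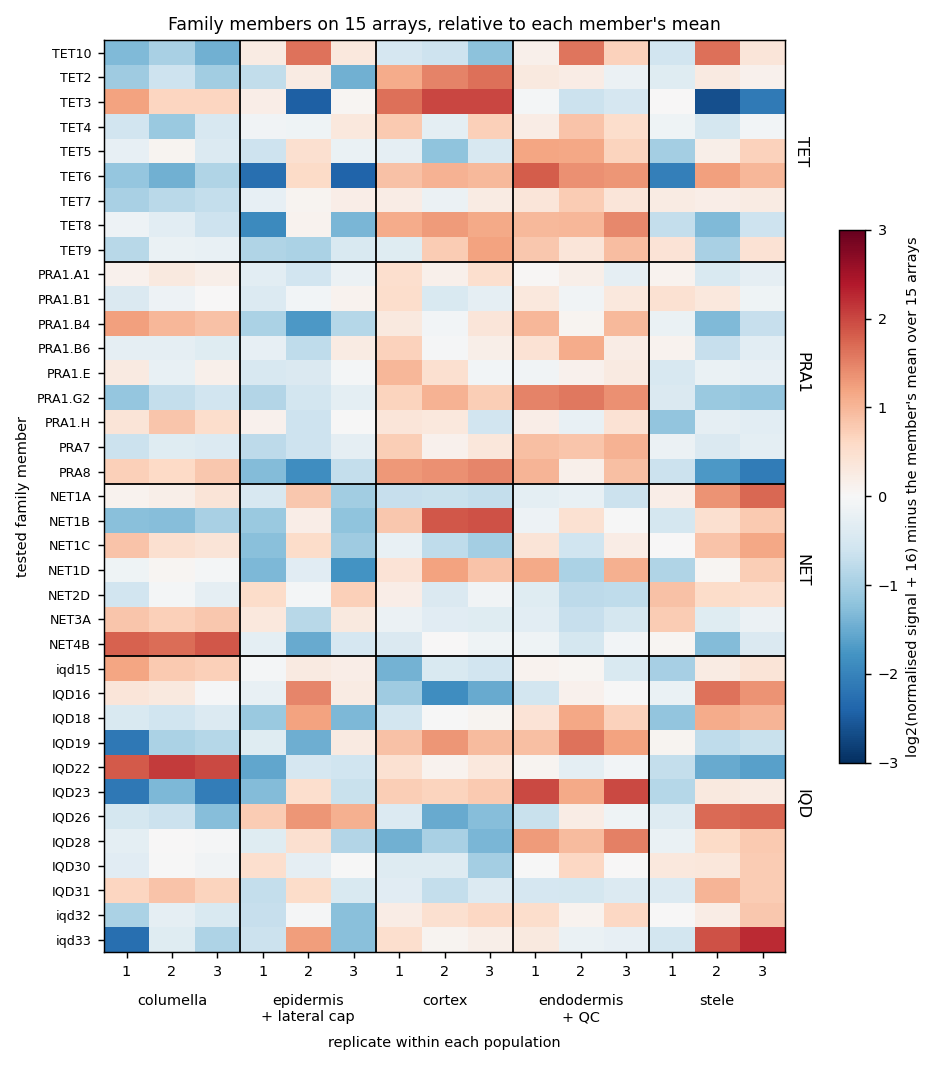
Levels of the 37 tested members (rows, by family) on 15 arrays (columns, 3 replicates for each population), as log2(signal + 16) minus the member's mean over the 15 arrays, with red above and blue below that mean. NET4B and IQD22 are red on all 3 columella arrays, TET members are mostly red in the cortex and the endodermis, and the epidermis replicate 2 and stele replicate 1 columns differ from the other columns of their populations.

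In the tetraspanin family all 9 tested members passed the F test, against 66.1% of all tested probe sets. As labelled, each had its highest population mean in the endodermis (6 members) or the cortex (3 members). The share of all tested probe sets that peak there is not given. TET8 was nearly tied, with log2 means of 12.07 in the cortex and 12.04 in the endodermis. Other peaks were narrow too: TET10 had 7.97 in the endodermis and 7.88 in the epidermis. TET4 had 5.86 in the endodermis and 5.74 in the cortex, and TET9 had 6.35 and 6.20. Of the members with a peak in the endodermis, only TET5 and TET6 were called higher there. Without both arrays in doubt TET10 was highest in the stele, with a difference of 1.26 log2 there and 1.01 in the endodermis. TET2, TET3 and TET8 were called higher in the cortex and TET5, TET6 and TET8 in the endodermis. Lower calls were made for TET2, TET7 and TET10 in the columella, TET8 in the epidermis, and TET3 and TET8 in the stele. The median difference of the 9 was 0.87 log2 in the endodermis, 0.67 in the cortex and -0.91 in the columella, beside -0.09, -0.07 and -0.03 for all tested probe sets.

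TET3, a tetraspanin found at plasmodesmata, the channels between plant cells, had the widest gap between population means in the family. Its signal was 2785, 3518 and 3522 on the 3 cortex arrays, in replicate order as in all lists of 3 below, against 2036, 1371 and 1379.7 in the columella and 832, 549 and 608 in the endodermis. It was 1006, 146 and 900.4 in the epidermis and 873, 127 and 189 in the stele. The cortex arrays lay above all others, and within the epidermis and the stele the array in doubt stood apart from its label. TET3 was 5.12-fold higher in the cortex, by 2.35 log2 (SE 0.52, limma adjusted p = 0.00191), and its difference in the stele was -1.98 log2 (SE 0.52, limma adjusted p = 0.0132). Leaving out stele replicate 2 or 3 took the stele call away (adjusted p = 0.109 and 0.0832), and the difference was -3.001 without both arrays in doubt. Without them TET3 was also called higher in the columella, by 1.03 log2 (SE 0.18, limma adjusted p = 0.000114), where it was not called as labelled (1.05, adjusted p = 0.125).

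TET8 is carried on the extracellular vesicles of Arabidopsis and serves as their marker. It was at 4104, 4603 and 4199 in the cortex and 3741, 3776 and 5187 in the endodermis. On the columella arrays it was 1698, 1529.6 and 1224, on those of the epidermis 489, 2039 and 721 and on those of the stele 1148, 745 and 1217. Both ground tissue populations lay above every other array, while epidermis replicate 2 was well above the other epidermis arrays. TET8 was higher by 1.47 log2 (SE 0.30, limma adjusted p = 0.0012) in the cortex and by 1.42 log2 (SE 0.30, limma adjusted p = 0.00441) in the endodermis, and the direct difference of cortex minus endodermis was 0.04 log2 (adjusted p = 0.959). Lower levels were called in the epidermis, -1.33 log2 (SE 0.30, limma adjusted p = 0.0058), and in the stele, -1.11 log2 (SE 0.30, limma adjusted p = 0.0163). The epidermis call ended without epidermis replicate 1 (-0.90, adjusted p = 0.0621), and the stele call without epidermis replicate 2 (-0.97) or stele replicate 2 (-0.90, adjusted p = 0.11).

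TET2 was the enriched tetraspanin. It had 189.8, 249 and 279 in the cortex, against 101, 94.9 and 67.7 in the endodermis and 57.8, 98.1 and 86.9 in the stele, 41.2, 96.4 and 19.1 in the epidermis and 29.1, 45.9 and 29.9 in the columella. No cortex array overlapped with another population. The cortex difference was 1.77 log2 (SE 0.28, limma adjusted p = 0.000142), and the smallest of its pairwise differences was cortex minus endodermis, 1.30 log2 (adjusted p = 0.0168). TET2 was lower in the columella with a difference of -1.13 log2 (SE 0.28, limma adjusted p = 0.00496), which fell under the size threshold with a pseudocount of 64 (-0.74). The enriched call ended without cortex replicate 2 or 3 or endodermis replicate 3, at a pseudocount of 64, and on the deposited scaling.

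TET6 and TET5, a pair whose double mutants have been studied for organ growth, were both highest in the endodermis. TET6 was at 310.1, 224 and 216 there, above all other arrays, and at 153, 173 and 166 in the cortex. In the stele it was 6.21, 199 and 167 and in the epidermis 3.03, 121 and 1.29, so that the arrays in doubt again stood apart, and in the columella 25.5, 17.8 and 33. TET6 was higher in the endodermis by 1.89 log2 (SE 0.62, limma adjusted p = 0.0445), a call that did not survive the loss of any one array of the columella, cortex or endodermis, or of epidermis replicate 1 or 3 (adjusted p = 0.0589 to 0.168), nor the deposited scaling, a pseudocount of 1 or the absence of a filter; with a pseudocount of 64 it was 1.23. Without both arrays in doubt TET6 was higher in the endodermis by 1.88 log2 (SE 0.18, limma adjusted p = 3.47e-07), in the stele by 1.37 log2 (SE 0.21, limma adjusted p = 5.97e-05) and in the cortex by 1.19 log2 (SE 0.18, limma adjusted p = 2.44e-05), and lower in the epidermis with a difference of -2.94 log2 (SE 0.21, limma adjusted p = 2.06e-08) and in the columella with a difference of -1.50 log2 (SE 0.18, limma adjusted p = 2.24e-06). TET5 was dim, at 80.3, 78.4 and 51.6 in the endodermis, against 5.01, 31.7 and 52.6 in the stele, 11.5, 43 and 21.1 in the epidermis, 19.9, 28.6 and 15.8 in the columella and 19.4, 2.32 and 14.5 in the cortex. Its endodermis difference was 1.26 log2 (SE 0.33, limma adjusted p = 0.0147) and was lost without endodermis replicate 1 or 2 (adjusted p = 0.0837 or 0.0635), as it was with a pseudocount of 1 or 64 (1.93 and 0.65). Its F call also ended without cortex replicate 2 or endodermis replicate 1 or 2 (0.0612 to 0.11), on the deposited scaling (0.0637) and at a pseudocount of 1 (0.0842).

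Of the remaining tetraspanins, TET10 and TET7 were lowest in the columella. TET10 was 40.7, 56.5 and 36.5 in the columella, against 151, 424 and 161 in the epidermis, 83.8, 76.5 and 44.8 in the cortex, 142, 418 and 213 in the endodermis and 78.7, 429.9 and 168 in the stele. Its 3 highest values fell on epidermis replicate 2, endodermis replicate 2 and stele replicate 2, of which the actin ratios were 28.3, 43.0 and 22.0, beside 6.56 to 23.0 on the other 12 arrays, and the part of RNA quality in this was not tested. TET10 was lower in the columella with a difference of -1.56 log2 (SE 0.41, limma adjusted p = 0.00773), and without both arrays in doubt it was also called higher in the stele (1.26) and the endodermis (1.01) and lower in the cortex (-1.01). TET7 was at 406, 455 and 487 in the columella, below all other arrays, and 679, 858 and 930.3 in the epidermis and 959, 716 and 968 in the cortex. It had 1053, 1394 and 1057 in the endodermis, above all others, and 964, 937 and 972 in the stele. Its columella difference was -1.05 log2 (SE 0.16, limma adjusted p = 0.000116) and fell under the size threshold without columella replicate 1 (-0.98), at a pseudocount of 64 (-0.98) and under array weights (-0.96). TET9, a relative of TET8, was dim, at 72.8, 48.7 and 79.4 in the endodermis and 23.5, 69.7 and 101 in the cortex. It had 51.1, 9.66 and 52.3 in the stele, 11.1, 10.02 and 20.6 in the epidermis and 12.6, 28.3 and 27.4 in the columella, and no population was called (endodermis 0.87, adjusted p = 0.0856). TET4 was at most 56.7 on any array and was not called in any population either. The F call of TET9 ended without epidermis replicate 1, cortex replicate 2 or endodermis replicate 1 or 3 (0.058 to 0.0694), and that of TET4 without columella replicate 2 (0.0656).

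**Figure D2:**
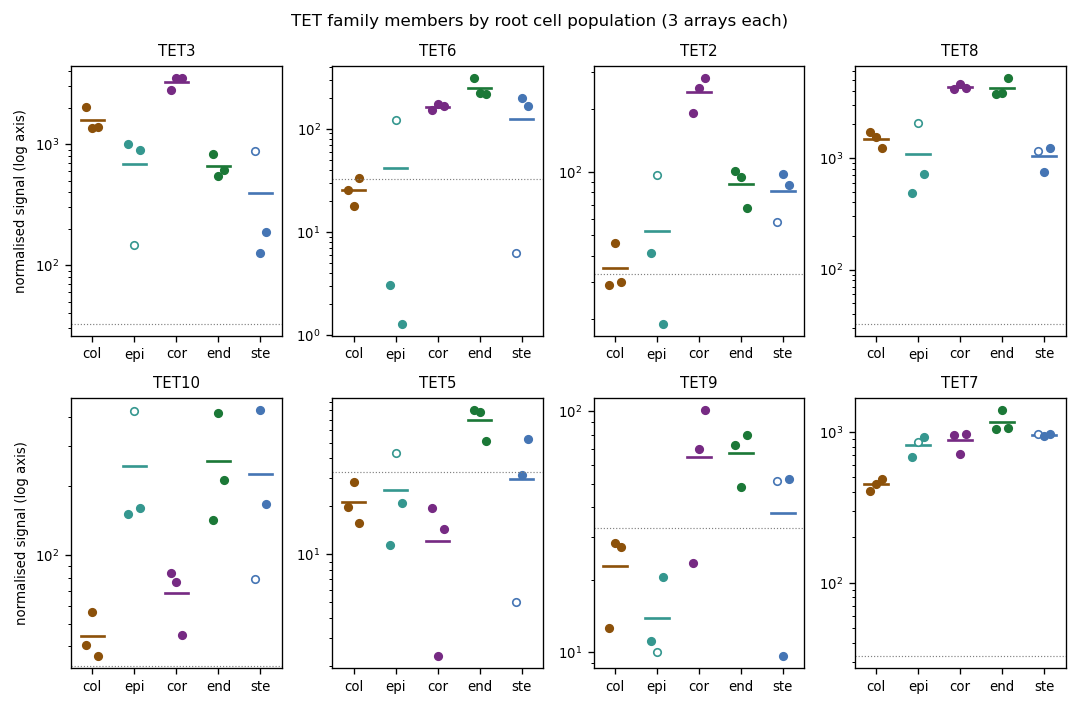
Signal on a log axis of 8 TET members on each array (points), by population: columella (col), epidermis (epi), cortex (cor), endodermis (end) and stele (ste), with a bar at the mean of the 3 arrays. Open points are epidermis replicate 2 and stele replicate 1, and the dotted line is the 40th percentile of the arrays, 32.9. TET2 and TET3 stand highest in the cortex, and the open points of TET3 and TET6 lie far from the filled points of their populations.

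Of the 9 tested PRA1 members, 6 passed the F test (66.7%), near the 66.1% of all tested probe sets. The median gap between the highest and the lowest population mean was 1.18 log2, beside 2.06 for TET, 1.78 for NET, 2.24 for IQD and 1.36 for all tested probe sets. PRA8 and PRA1.G2 were higher in the cortex, PRA7 and PRA1.G2 in the endodermis, and PRA1.B4 in the columella. PRA8 and PRA1.B4 were lower in the epidermis, PRA8 and PRA1.G2 in the stele, and PRA1.G2 in the columella. No PRA1 member was enriched.

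PRA8, listed as PRA1.F3, was low in the epidermis and the stele and higher elsewhere. Its signal was 836, 870.0 and 941 in the cortex, above all other arrays, 679.8, 368 and 625 in the endodermis and 552, 508 and 589 in the columella. It was 124, 78.3 and 193 in the epidermis and 206, 87.6 and 64.6 in the stele, where no array reached the level of any cortex, endodermis or columella array. The differences were 1.73 log2 (SE 0.29, limma adjusted p = 0.000214) in the cortex, -1.62 log2 (SE 0.29, limma adjusted p = 0.0013) in the epidermis and -1.86 log2 (SE 0.29, limma adjusted p = 0.000691) in the stele, and all 3 calls held under each of the 24 alternatives tried. The cortex exceeded the columella by 0.67 log2 (adjusted p = 0.151) and the endodermis by 0.69 log2 (adjusted p = 0.197), neither past the threshold.

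PRA7, listed as PRA1.F2, had another order. It was at 311, 295 and 342 in the endodermis, above all other arrays, and at 276, 174 and 206 in the cortex, against 138, 112 and 126 in the stele, 85.7, 97.2 and 129 in the epidermis and 95.5, 119 and 114 in the columella. PRA7 was higher in the endodermis by 1.16 log2 (SE 0.17, limma adjusted p = 0.000294), which fell under the size threshold with a pseudocount of 64 (0.94). In the columella PRA7 had a difference of -0.60 and PRA8 of 0.89, neither called.

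PRA1.G2 was also highest in the endodermis, at 254, 271 and 232, above all other arrays, followed by the cortex at 135, 180.0 and 143. The other populations were lower, at 35.7, 49.7 and 62.6 in the epidermis, 26.7, 41.9 and 48.2 in the columella and 54.4, 28 and 26.4 in the stele. Its endodermis difference was 1.86 log2 (SE 0.21, limma adjusted p = 2.22e-05) and held under all 24 alternatives. The cortex (1.01), stele (-1.14) and columella (-1.02) differences lay close to the size threshold. They fell under it with a pseudocount of 64, the cortex and stele calls also under the deposited scaling, and the columella call also with array weights and without both arrays in doubt. Leaving out 1 array ended the cortex call for columella replicate 1, epidermis replicate 1, cortex replicate 2, endodermis replicate 3 and stele replicates 2 and 3 (0.90 to 0.996), and the columella call for columella replicate 1, epidermis replicate 3, cortex replicate 2 and stele replicate 1 (-0.99 to -0.85).

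PRA1.B4 was highest in the columella, at 1202, 1009 and 939, against 1011, 529 and 995 in the endodermis, 622, 472 and 653 in the cortex, 435, 191 and 305 in the stele and 253, 141 and 270.2 in the epidermis. Columella and endodermis overlapped, and endodermis replicate 2 was at about the cortex level. Under all 24 alternatives PRA1.B4 was called higher in the columella, 1.29 log2 (SE 0.26, limma adjusted p = 0.00119), and lower in the epidermis, -1.47 log2 (SE 0.26, limma adjusted p = 0.00132). Without both arrays in doubt it was also lower in the stele, with a difference of -1.27 log2 (SE 0.24, limma adjusted p = 0.000358).

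PRA1.B6, which in overexpression slows traffic out of the endoplasmic reticulum, and PRA1.A1 passed the F test narrowly and were called in no population. PRA1.B6 was 1123, 1792 and 956 in the endodermis, 1328, 796 and 931 in the cortex, 689.8, 476 and 979 in the epidermis, 879, 499 and 656 in the stele and 675, 678 and 635 in the columella (F test adjusted p = 0.0491). PRA1.A1 was 415, 322 and 416 in the cortex, 314, 353 and 326 in the columella, 292, 326 and 235 in the endodermis, 312, 203 and 233 in the stele and 227, 186 and 253 in the epidermis (F test adjusted p = 0.0392). The populations overlapped for both. Each F call ended without any single one of most arrays: for PRA1.B6 all but epidermis replicates 2 and 3, endodermis replicate 3 and stele replicate 1 (adjusted p = 0.0501 to 0.142), and for PRA1.A1 without any columella array, epidermis replicate 1 or 2, cortex replicate 1 or 3, endodermis replicate 1 or stele replicate 2 or 3 (0.0552 to 0.106). PRA1.B1, PRA1.E and PRA1.H did not pass, with F test adjusted p of 0.536, 0.0786 and 0.0589 and gaps of 0.40, 0.80 and 1.18 log2. A p above the threshold does not show equal levels. PRA1.H passed without epidermis replicate 2 (adjusted p = 0.0461) or cortex replicate 3 (0.0318), and PRA1.E without cortex replicate 3 (0.0207). The F call of PRA1.B6 ended also at a pseudocount of 1 (0.051), with no filter (0.0589) and with no variance trend (0.0568), and that of PRA1.A1 with no filter (0.051), while PRA1.H passed at a pseudocount of 64 (0.0437) and under array weights (0.0188).

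**Figure D3:**
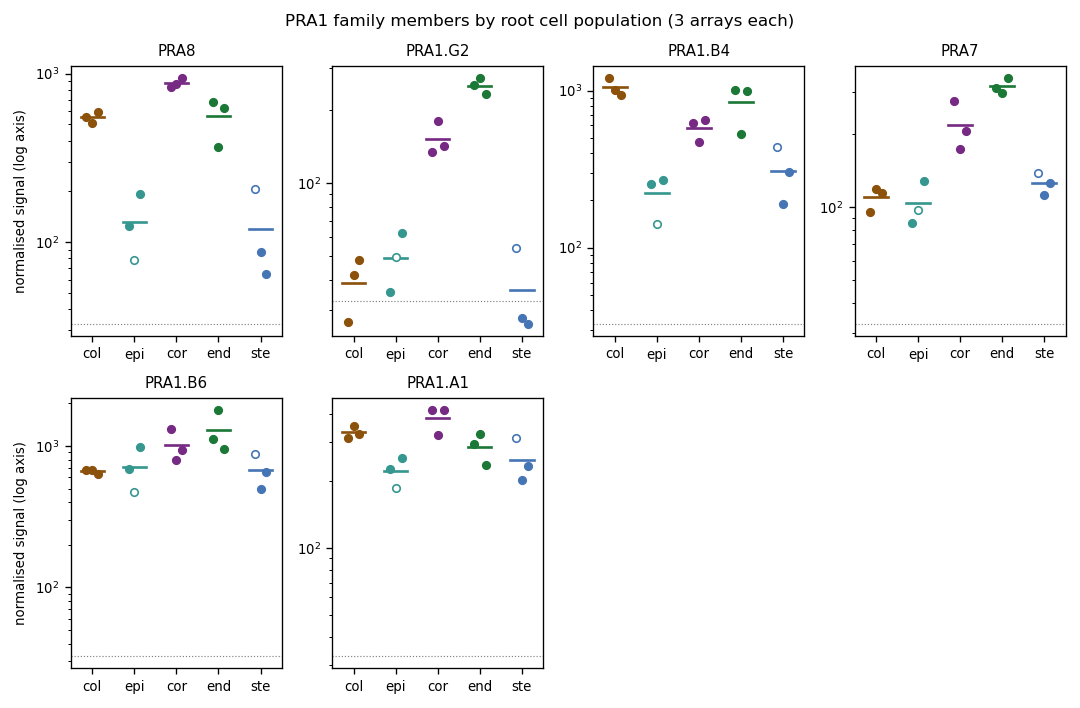
Signal on a log axis of the 6 PRA1 members past the F test on each array (points), by population, with a bar at the mean of the 3 arrays: columella (col), epidermis (epi), cortex (cor), endodermis (end) and stele (ste). Open points are the 2 arrays in doubt and the dotted line is the 40th percentile, 32.9. PRA8 and PRA1.B4 are low in the epidermis and the stele, and PRA7 and PRA1.G2 are highest in the endodermis.

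All 7 tested NET members passed the F test, against 66.1% of all tested probe sets. NET4B was higher in the columella, NET1B in the cortex and NET1A in the stele, while NET1B was lower in the columella and NET1D in the epidermis. No NET member was called in the endodermis, where 7.83% of all tested probe sets were called higher and 3.42% lower, so that a count of 0 among 7 is near the background. Leaving out 1 array took the number past the F test to between 4 and 7, through NET1A, NET1C, NET1D and NET3A.

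NET4B, of the pair of NET proteins placed at the vacuole membrane, stood apart in the columella. Its signal was 3463, 3249.7 and 3719 in the columella, against 815, 344 and 703 in the epidermis, 746, 1016 and 924 in the cortex, 922, 694 and 947 in the endodermis and 1043, 397 and 739 in the stele. The lowest columella array was 3.12 times the highest of the other 12. NET4B was 4.63-fold higher in the columella, a difference of 2.21 log2 (SE 0.27, limma adjusted p = 1.7e-05), and was enriched there under all 24 alternatives. The smallest pairwise difference was columella minus cortex, 1.95 log2 (adjusted p = 0.000324). Without both arrays in doubt NET4B was also called lower in the stele (-1.11, as labelled -0.71).

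NET1A, the founding member, which marks actin at the plasma membrane and plasmodesmata of root cells, and NET1B, its close relative, were highest in different populations. NET1A was 204, 468 and 613 in the stele, against 189, 199.7 and 235 in the columella, 121, 316 and 76.1 in the epidermis, 139, 148 and 107 in the endodermis and 102, 104 and 101 in the cortex. Epidermis replicate 2 was above the other epidermis arrays, and stele replicate 1 below the other stele arrays. NET1A was higher in the stele by 1.36 log2 (SE 0.33, limma adjusted p = 0.00883), which was lost, as was its F call, without stele replicate 2 or 3 (adjusted p = 0.056 and 0.0772), and by 1.95 log2 (SE 0.20, limma adjusted p = 1.38e-06) without both arrays in doubt. NET1B was 196, 427 and 439 in the cortex, above all other arrays by a narrow margin on replicate 1, and 67.9, 154 and 194 in the stele and 93.2, 152 and 104 in the endodermis. In the epidermis it was 40.2, 122 and 36.5 and in the columella 34.8, 33.8 and 46.3. NET1B was called higher in the cortex, 1.91 log2 (SE 0.33, limma adjusted p = 0.000327), and lower in the columella, -1.46 log2 (SE 0.33, limma adjusted p = 0.00305), the second of these just under the size threshold with a pseudocount of 64. Its enriched call in the cortex ended without both arrays in doubt, under the deposited scaling, and without cortex replicate 2 or 3, endodermis replicate 1 or 3 or stele replicate 1.

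NET1D and NET1C were lowest in the epidermis or cortex. NET1D was 42.6, 102 and 26.7 in the epidermis, against 180.1, 323 and 251 in the cortex, 307, 61.2 and 294 in the endodermis, 62.9, 138 and 232 in the stele and 119, 138 and 125 in the columella. The low endodermis value was that of replicate 2, the array with the actin ratio of 43.0, whose part in it was not tested. NET1D was lower in the epidermis with a difference of -1.44 log2 (SE 0.42, limma adjusted p = 0.0211), which was lost without epidermis replicate 1 or 3 (adjusted p = 0.0965 or 0.125) or with a pseudocount of 64, and with a difference of -1.98 log2 (SE 0.39, limma adjusted p = 0.000576) without both arrays in doubt. NET1C was 63.4, 45.1 and 41.5 in the columella, 28.3, 63 and 81.8 in the stele, 40.8, 13.1 and 35 in the endodermis, 2.29, 48.2 and 4.80 in the epidermis and 21.7, 9.76 and 5.57 in the cortex. It was called in no population as labelled, and without both arrays in doubt it was higher in the stele (1.32) and lower in the epidermis (-1.38). The F calls of both genes were narrow (adjusted p = 0.0409 and 0.0391): that of NET1D ended without any single array but epidermis replicate 2, endodermis replicate 2 and stele replicates 1 and 3, and that of NET1C without any columella array, epidermis replicate 1 or 3, cortex replicate 2 or 3, endodermis replicate 3 or stele replicate 2 or 3 (0.0519 to 0.154 for both). On the deposited scaling neither gene passed (0.0982 for NET1D and 0.0522 for NET1C), which left 5 of the 7 NET members past the F test, and NET1D also did not pass with no filter (0.051).

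NET2D, of a subfamily described in pollen, was measured in every root population. It was 619, 486 and 474 in the stele, 492, 315 and 548 in the epidermis, 381, 239 and 303 in the cortex, 217, 316 and 271 in the columella and 250.5, 183 and 186 in the endodermis. The lowest of the 15 arrays was thus at 183, and no population difference reached 1 log2 (stele 0.81, endodermis -0.80, F test adjusted p = 0.0028). NET3A, of a subfamily placed at the nuclear envelope and the endoplasmic reticulum, was 90.8, 82.6 and 88.5 in the columella, against 58.4, 17.5 and 57.7 in the epidermis, 85.8, 30.3 and 37.1 in the stele, 37.2, 31.1 and 30.4 in the cortex and 31.9, 21.2 and 25.6 in the endodermis. Its columella difference, 0.99 log2 (SE 0.26, limma adjusted p = 0.00833), lay under the size threshold, and its F call (adjusted p = 0.0273) ended without any columella array or endodermis replicate 2 or 3 (0.0545 to 0.0887).

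**Figure D4:**
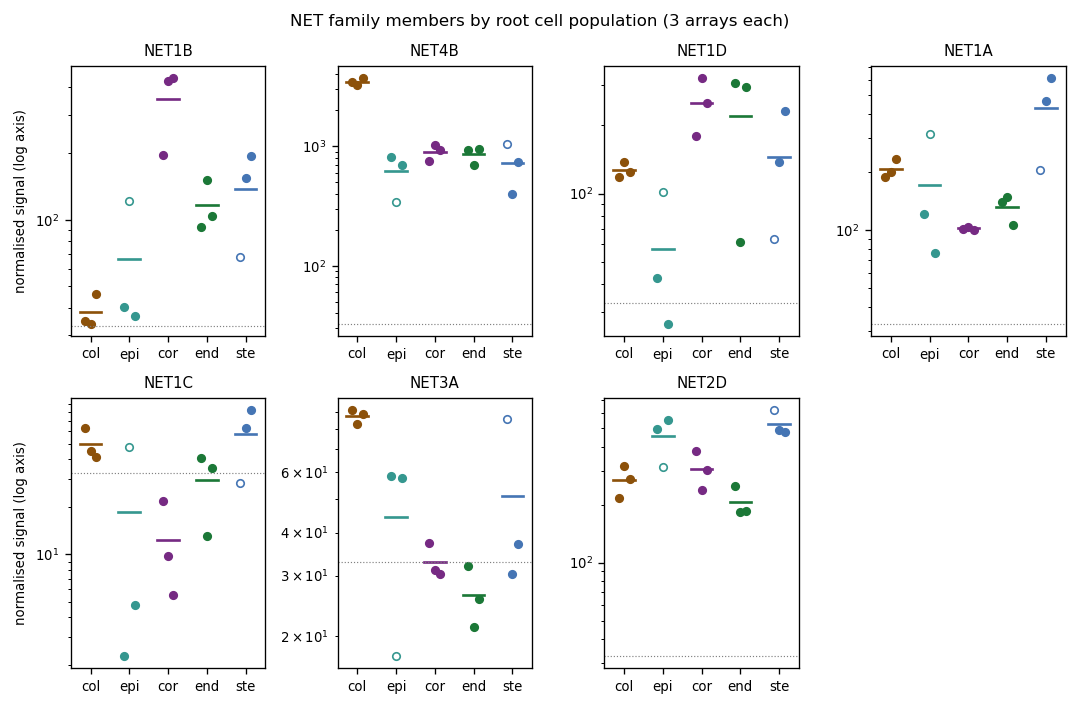
Signal on a log axis of the 7 tested NET members on each array (points), by population, with a bar at the mean of the 3 arrays: columella (col), epidermis (epi), cortex (cor), endodermis (end) and stele (ste). Open points are the 2 arrays in doubt and the dotted line is the 40th percentile, 32.9. NET4B is highest in the columella, NET1B in the cortex, and the filled points of NET1A in the stele.

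Among the IQD genes, 10 of 12 tested members passed the F test (83.3%, against 66.1% of all tested probe sets), and calls were made in every population. In the columella IQD22 and iqd15 were higher and IQD19, IQD23, IQD26 and iqd33 lower. IQD19, IQD23 and IQD28 were higher in the endodermis, IQD19 in the cortex, IQD16 and IQD26 in the stele, and IQD26 in the epidermis. Lower calls were made for iqd15, IQD16, IQD26 and IQD28 in the cortex, and for IQD22 in the epidermis and the stele.

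IQD22 was the enriched member. It was 1003, 1213 and 1112 in the columella, against 375, 293 and 337 in the cortex, 284, 218 and 254 in the endodermis, 81.2, 184 and 174 in the epidermis and 157, 83.2 and 76.4 in the stele. The lowest columella array was 2.67 times the highest other array. IQD22 was 5.54-fold higher in the columella, a difference of 2.47 log2 (SE 0.23, limma adjusted p = 1.86e-06), and was enriched there under all 24 alternatives. It was lower in the stele with a difference of -1.61 log2 (SE 0.23, limma adjusted p = 0.000486), and in the epidermis with a difference of -1.10 log2 (SE 0.23, limma adjusted p = 0.00363), where the call ended without epidermis replicate 1 (-0.77) and with a pseudocount of 64 (-0.95).

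IQD23 was lowest in the columella and had the widest gap between population means of the 37 tested members. Its signal was 1048, 583 and 1054 in the endodermis, above all other arrays, against 435, 417 and 451 in the cortex and 134, 316 and 307 in the stele. It was 94.6, 367 and 154 in the epidermis and 45.2, 91.1 and 48.3 in the columella, below all other arrays. The differences were 2.13 log2 (SE 0.34, limma adjusted p = 0.000484) in the endodermis and -2.31 log2 (SE 0.34, limma adjusted p = 8.58e-05) in the columella, and both held under all 24 alternatives. Without both arrays in doubt IQD23 was also lower in the epidermis, with a difference of -1.20 log2 (SE 0.25, limma adjusted p = 0.000949).

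IQD19 and IQD28 were both higher in the endodermis and differed in the cortex. IQD19 was 333, 560.3 and 413 in the endodermis and 326, 447 and 345 in the cortex, against 129, 51 and 210.0 in the epidermis, 179.9, 93.1 and 102 in the stele and 26.1, 80.04 and 86.6 in the columella. Each ground tissue array of IQD19 was above all other arrays. IQD19 was called higher in the endodermis, 1.56 log2 (SE 0.34, limma adjusted p = 0.00497), and in the cortex, 1.31 log2 (SE 0.34, limma adjusted p = 0.00571), and lower in the columella, -1.65 log2 (SE 0.34, limma adjusted p = 0.00141). IQD28 was 455, 357 and 539 in the endodermis, above all other arrays, and 55.7, 82.3 and 59 in the cortex, below all others. In the stele it was 152, 271 and 318, in the columella 141, 179 and 173 and in the epidermis 135, 256 and 88.9. The endodermis difference of IQD28 was 1.56 log2 (SE 0.27, limma adjusted p = 0.000864) and the cortex difference -1.58 log2 (SE 0.27, limma adjusted p = 0.000242). These 5 calls held under all 24 alternatives.

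IQD16, a microtubule-associated IQD protein, and IQD26 were both lowest in the cortex and high on those stele arrays that were not in doubt. IQD16 was 48.4, 212 and 169 in the stele and 47, 188 and 71.4 in the epidermis, against 78.7, 73.3 and 56.1 in the columella, 33.8, 63.9 and 56.3 in the endodermis and 19, 4.32 and 9.57 in the cortex. The cortex arrays lay below all others and below the 40th percentile. IQD16 was lower in the cortex with a difference of -1.85 log2 (SE 0.37, limma adjusted p = 0.000947), a size that depends on the pseudocount (-2.91 at 1, and -0.97 at 64, under the threshold), and higher in the stele by 1.16 log2 (SE 0.37, limma adjusted p = 0.0339). The stele call was lost without columella replicate 3, cortex replicate 2, endodermis replicate 1 or stele replicate 2 or 3 (range of adjusted p 0.0518 to 0.222), or at a pseudocount of 64, and grew to 1.85 log2 (SE 0.26, limma adjusted p = 2.14e-05) without both arrays in doubt. IQD26 was 34.2, 197 and 203 in the stele and 93.8, 147 and 119 in the epidermis, against 24.9, 60.3 and 43.4 in the endodermis, 29.5, 25.5 and 10.8 in the columella and 32.8, 7.0 and 10.9 in the cortex. It was higher in the epidermis by 1.31 log2 (SE 0.39, limma adjusted p = 0.0225) and in the stele by 1.28 log2 (SE 0.39, limma adjusted p = 0.0261), and lower in the cortex with a difference of -1.33 log2 (SE 0.39, limma adjusted p = 0.0117) and the columella with a difference of -1.02 log2 (SE 0.39, limma adjusted p = 0.0495). The stele difference was 2.04 without both arrays in doubt and 1.99 without stele replicate 1 alone, and the call was lost once stele replicate 2 or 3 was left out (adjusted p = 0.173 and 0.177). The epidermis call ended without any epidermis array (0.056 to 0.0707) and without both arrays in doubt (0.99), and the cortex call without cortex replicate 2 or 3 (0.0781 and 0.0596). The columella call ended without any single array other than cortex replicate 2, endodermis replicate 1 and stele replicate 1 (0.0521 to 0.228), and also on the deposited scaling (0.0617), at a pseudocount of 1 (0.0697), with no filter (0.0664) and with the filter at the 60th percentile (0.0516). With a pseudocount of 64, IQD26 was under the size threshold in all 4 populations.

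Among the other IQD members, iqd15 was dim, at 113, 81.3 and 77.5 in the columella, above all other arrays, against 37.9, 51.8 and 49 in the epidermis, 12.3, 50.7 and 57.6 in the stele, 45.1, 43.2 and 25.2 in the endodermis and 5.31, 25.5 and 22.1 in the cortex. Its columella difference was 1.12 log2 (SE 0.28, limma adjusted p = 0.00595), and it was lower in the cortex with a difference of -1.01 log2 (SE 0.28, limma adjusted p = 0.00943). Both fell under the thresholds with array weights, with a pseudocount of 64 and without columella replicate 1, and the cortex call also without epidermis replicate 2, cortex replicate 1, endodermis replicate 1 or 2 or stele replicate 2 or 3 (-0.99 to -0.72). With a pseudocount of 1 the cortex difference was -1.62. IQD31 was 839.6, 970.1 and 849 in the columella and 399, 1093 and 918 in the stele, against 316, 784 and 382 in the epidermis, 368, 361 and 397 in the endodermis and 419, 317 and 396 in the cortex. Here too epidermis replicate 2 and stele replicate 1 stood apart from their labels, and IQD31 was called higher in the stele without both arrays (1.11) and not as labelled (0.58). Its F call ended without columella replicate 2 (adjusted p = 0.0513).

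The other 4 tested IQD members were given less room by the naming rule. IQD30 and iqd32 had gaps of 1.07 and 1.10 log2 and passed the F test with no population called as labelled. The F call of IQD30 ended without cortex replicate 3 or stele replicate 3 (adjusted p = 0.0992 and 0.0593). IQD18 and iqd33 did not pass as labelled (F test adjusted p = 0.322 and 0.0802) and did without both arrays in doubt (4.42e-06 and 1.38e-05). IQD18 was 37.9, 252 and 235 in the stele and 41.1, 269 and 32.4 in the epidermis, with the array in doubt far from the other 2 in both. Without them it was higher in the stele by 1.37 log2 (SE 0.23, limma adjusted p = 0.000121) and lower in the epidermis with a difference of -1.53 log2 (SE 0.23, limma adjusted p = 4.54e-05). The same comparison for iqd33 gave 2.57 log2 (SE 0.34, limma adjusted p = 1.48e-05) in the stele, at 40.3, 294 and 369.9 on its 3 arrays, and -1.23 log2 (SE 0.34, limma adjusted p = 0.00722) in the epidermis. The lower call of iqd33 in the columella, -1.48 log2 (SE 0.56, limma adjusted p = 0.0486), rested on values of 1.25, 48 and 27.2 and ended without any cortex or endodermis array, columella replicate 1 or 3, epidermis replicate 1 or stele replicate 2 or 3 (adjusted p = 0.0506 to 0.301). It was -0.94 without columella replicate 1 and -2.49 and -0.84 with pseudocounts of 1 and 64, and the call also ended at the pseudocount of 64 (0.0772), on the deposited scaling (0.0605) and with no filter (0.0624).

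**Figure D5:**
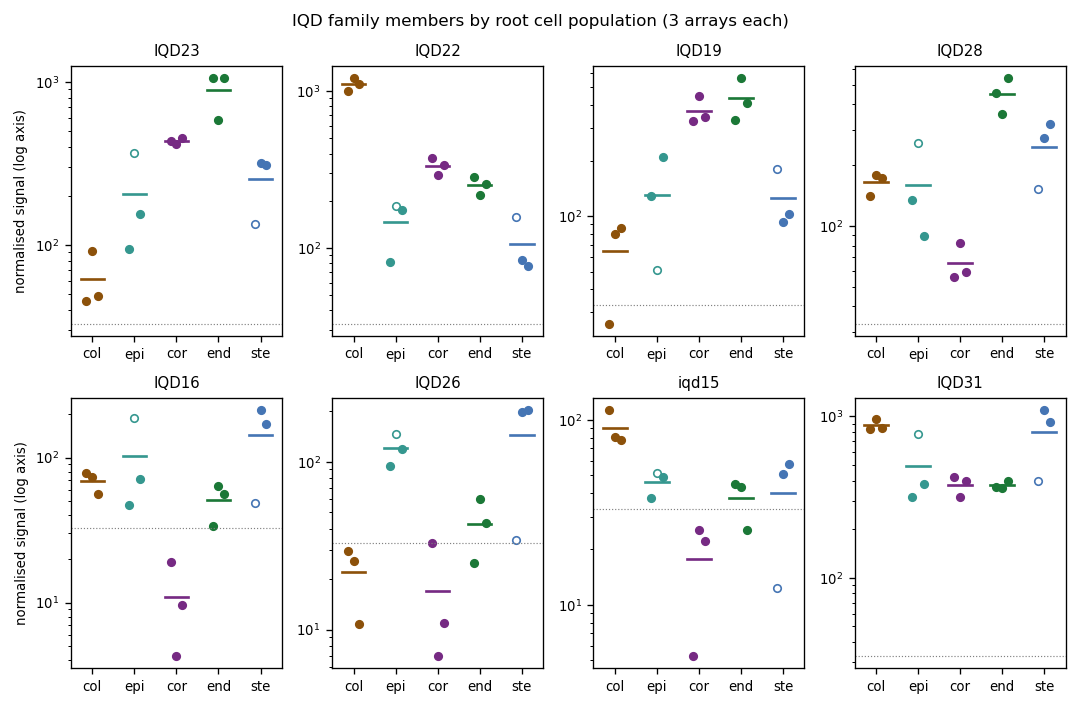
Signal on a log axis of 8 IQD members on each array (points), by population, with a bar at the mean of the 3 arrays: columella (col), epidermis (epi), cortex (cor), endodermis (end) and stele (ste). Open points are the 2 arrays in doubt and the dotted line is the 40th percentile, 32.9. IQD22 is highest and IQD23 lowest in the columella, and IQD28 is highest in the endodermis and lowest in the cortex.

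Members of the same family thus peaked in different populations. By highest mean, the 12 tested IQD genes split into 4 with a peak in the endodermis, 3 each in the columella and the stele and 1 each in the epidermis and the cortex. The 7 NET genes split into 3 in the stele and 2 each in the columella and the cortex, and the 9 PRA1 genes into 3 each in the cortex and the endodermis, 2 in the columella and 1 in the stele. IQD18, iqd33, PRA1.B1, PRA1.E and PRA1.H are counted although they did not pass the F test. IQD26, the only epidermis peak, had a log2 mean of 7.07 there and 7.05 in the stele. Without both arrays in doubt IQD18, IQD26, IQD31 and iqd32 were highest in the stele, NET2D in the epidermis and PRA1.B1 in the endodermis. Peak shares of all tested probe sets are not given. In the gene table, IQD19 (AT4G14750) and NET1B (AT4G14760) are direct neighbours on chromosome 4, and TET16 (AT1G18510) and TET11 (AT1G18520) on chromosome 1. IQD19 and NET1B were both lower in the columella and both higher in the cortex, by 1.31 and 1.91, while the endodermis differences were 1.56 and 0.13. TET16 and TET11 were both below the filter.

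Genes of the same cell machinery were described beside the families, as far as they had a named probe set here, and were not recomputed under the alternatives. Of 7 tested tubulin genes, 5 passed the F test, near the 66.1% of all tested probe sets that did, and TUB1 and TUB5, for beta-tubulins, were higher in the cortex (2.11 and 1.67 log2) and lower in the columella (-2.47 and -2.23), while TUB7 was lower in the cortex (-1.40). ACT11, the single tested actin gene, was higher in the endodermis (1.52) and lower in the columella (-2.14). ATMAP65-6, of a family that bundles microtubules, was higher in the cortex (1.199) and lower in the epidermis (-1.25), and the other tested gene of that list, SPR1, did not pass (F test adjusted p = 0.173). All 6 tested calmodulin-like genes passed, against the same 66.1%, with 3 higher in the columella (CML23, CML37 and CML43), 2 in the cortex (CML42 and CML43) and 1 in the epidermis (CML30). Lower calls were made for CML30 and CML37 in the endodermis, CML30 in the cortex, CML38 in the epidermis and CML23 in the stele. The single tested myosin and Rab genes, XI-I and ARA6, did not pass (adjusted p = 0.103 and 0.132), and the lists for kinesin light chain-related and membrane contact proteins had no named probe set here.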

How the data were processed

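RNA of 15 sorted root samples was amplified in 2 cycles and hybridised to Affymetrix arrays, per the labels' protocols. The deposited values are signal intensity on a linear scale, made by the authors with MAS5 per the submitters' processing notes; the sources used here give no version and no detection calls. The deposited intensity of each array had a mean near 250.02 or 250.03 after the lowest and highest 2% were left out. Precision is limited by the number of arrays.

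From these values R 4.3.3 with limma 3.58.1 computed quantile normalisation, log2(signal + 16), the filter on the 40th percentile on at least 3 arrays without the 64 control probe sets (16126 left), and one model with a mean per population (lmFit, eBayes with a variance trend), with Benjamini-Hochberg adjustment over all tested probe sets. Figures were drawn with Python 3.11.15 and matplotlib 3.10.9. The fit was run on simulated data with independent noise, no arrays in doubt and equal population means except for some probe sets raised in the columella. Such data are simpler than these, so that run does not check the calls made here.

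Names came from the platform annotation, with 13513 probe sets of 1 symbol, 503 of several and 8794 unnamed here. All 51 members matched a locus in the gene table of assembly TAIR10.1. Coordinates are left out because no source used here names the build of the array design. Members, lists and tests were chosen with earlier results of these data known. Values on every array are given for enriched members and, per family, for up to 8 members past the F test with the largest gap between population means; any other name was picked with its values in view. The alternatives tried were leaving out each array, leaving out both arrays in doubt, a replicate block, array weights, no variance trend, filters at the 60th percentile or none, pseudocounts of 1 and 64, and the deposited scaling. The p-values reflect only how far these samples spread, and that spread may be technical.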

Additional observations from a re-analysis of the deposited data

How the results depend on the processing

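The members' results were recomputed under 24 alternatives, and no called difference reversed in any that gave a value. With the filter at the 60th percentile 30 of the 37 members were tested, so that the 3 calls of TET5 and iqd15 had 23 alternatives each. Of 46 calls of a single member against the other 4 populations, 22 held under all 24 and 24 ended under at least 1. Members enriched were 4 as reported, 2 under the deposited scaling, 9 with array weights and 7 without both arrays in doubt. At the pseudocount of 64, members lower in the columella numbered 4 against 9, higher in the epidermis 0 against 1, lower in the epidermis 3 against 5, and lower in the cortex 1 against 4. With array weights, members lower in the epidermis numbered 13 and higher in the stele 8. Without both arrays in doubt they numbered 13 and 9, with 0 higher in the epidermis. The shares of all tested probe sets then rose as well, from 6.1% to 12.4% lower in the epidermis and from 6.5% to 12.9% higher in the stele. Such shares are not given for array weights, the pseudocount of 64 or single arrays left out. Counts under those settings therefore do not set the members apart from other probe sets.

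Leaving out 1 array gave 7 to 9 TET, 4 to 6 PRA1, 4 to 7 NET and 9 to 12 IQD members past the F test, and 2 to 5 enriched members. Counts of members higher and lower then ran from 3 to 6 and 5 to 9 in the columella, 0 to 2 and 3 to 12 in the epidermis, 6 to 10 and 3 to 5 in the cortex, 6 to 10 and 0 in the endodermis, and 0 to 7 and 3 to 7 in the stele. Single arrays that moved a count by over 1.5 times were any columella array, endodermis replicate 3 and stele replicate 2 for NET past the F test (4), columella replicate 1 for lower in the columella (5), and epidermis replicates 1 and 2 for lower in the epidermis (3 and 12). Others were any epidermis array and stele replicate 2 for higher in the epidermis, any stele array for higher in the stele, stele replicate 2 for lower in the stele (3), and cortex replicates 2 and 3 and endodermis replicate 3 for enriched members (2). Apart from fewer samples, causes were not tested.

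The labels give the same replicate numbers in every population, and the numbers were not taken as pairs. Only 6 of 30 same-numbered pairs of arrays deviated together with a correlation over 0.1 (-0.516 to 0.724). Pairs of arrays with different numbers, from different populations, had a like range (-0.798 to 0.723), so this check cannot decide whether replicates were paired. With a replicate block, PRA1.B6 (adjusted p = 0.061), PRA1.A1 (0.0551), NET1C (0.0585) and NET1D (0.0558) did not pass the F test, and IQD26 was not called in the columella (0.0539). The deposited scaling moved the median difference of all probe sets in the cortex to -0.22 from -0.07, and the share of higher among called probe sets in the stele to 63.0% from 52.5%. Low signal limits the differences of dim members: TET4 and TET5 exceeded the 40th percentile of 32.9 on 5 of the 15 arrays each, and TET9 on 7.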
